A study of Homo sapiens with 36 samples.

Results

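Transcripts of 36 proteasome subunit genes were followed by RNA-seq in 36 libraries of HepG2-IGF1R-KO, a hepatoma line of human origin whose genotype is given as a knockout of the IGF-1 receptor gene. The members were the protein-coding genes of the count table with a symbol made of PSMA, PSMB, PSMC or PSMD and a number. The immunoproteasome genes PSMB8 and PSMB9 and all pseudogenes were set aside, which left 36 of 57771 genes. PSMB3 was not analysed here. Of the 36 members, 34 passed the filter on low counts. The other members were PSMA8, an alpha subunit known from testis, with at most 0.0162 CPM in any library, and PSMB11, a catalytic subunit known from thymus, with at most 0.0171 CPM, where CPM is the count scaled to library size after adjustment by trimmed means (TMM).

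The libraries formed 4 groups of 9, and all of them carried the IGF1R-KO genotype and were grown in DMEM with serum. Untreated cells in normal medium received no added insulin, and insulin-stimulated cells in normal medium received 3 nM human insulin for 18 h. Untreated cells in insulin-resistant medium had been exposed for 72 h to 1 nM insulin, 20 mM glucose and 0.5 mM fatty acids (oleic, linoleic and palmitic), and the last group had the same exposure and then 3 nM insulin for 18 h. Nothing in the labels tells if the 1 nM insulin was still present when the untreated cells of that medium were collected, so the insulin comparison in that medium may be one of 2 insulin doses. The labels also do not say whether the line is 1 clone. They name the 9 libraries of a group biological replicates without naming separate cultures, so the p-values measure the spread between these libraries, part of which may be technical.

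The proteasome degrades proteins that carry ubiquitin chains. Its core particle is a stack of rings: alpha subunits, encoded by PSMA genes, form the outer rings and the gate, and beta subunits, encoded by PSMB genes, form the inner rings that hold the proteolytic sites. The regulatory particle caps the core. Its base holds a ring of ATPases, encoded by PSMC genes, which unfold the substrate, together with scaffold and ubiquitin-binding subunits, and its lid removes ubiquitin chains through the metalloprotease PSMD14. PSMD5, PSMD9 and PSMD10 are chaperones that help assemble the base and are not part of the finished particle. In hepatocytes as in other cells, the transcription factor NFE2L1 is known to raise the subunit genes together when proteasome activity is short, and insulin is known to slow protein breakdown in liver.

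Library totals ran from 26.6M to 117M counts, with a median of 64.6M and group medians of 63.0M to 66.9M. Within each group, replicates 1 to 3, 4 to 6 and 7 to 9 formed 3 triplets of libraries that resembled each other. Apart from the fits of summed triplets, the tests below took the libraries of a group as independent. Their standard errors and p-values may therefore be too small. The labels give batch dates of 22 April, 11 April and 24 May. In 6 libraries, the normal-medium insulin replicates 4 to 6 and the untreated insulin-resistant replicates 1 to 3, the collagen gene COL1A1 stood at 0.742 to 1.6 CPM, against 7166 to 35850 CPM in the other 30. These 6 are called COL1A1-low below, and results are given with and without them. Hepatocyte markers were present throughout, with the albumin gene ALB at 7281 to 12099 CPM in the COL1A1-low libraries and 3458 to 9293 CPM in the others. The summed level of 20 stromal marker genes was 7269 to 12603 CPM in the COL1A1-low libraries and 34340 to 138120 CPM in the others, and in the former the fibronectin gene FN1, which hepatocytes also express, made up nearly all of it (7050 to 12379 CPM), while COL1A2 was at 0 to 0.0261 CPM and COL3A1 at 0 to 0.117 CPM. IGF1R itself stood at 65.3 to 147 CPM in all 36 libraries, and since the edit is not described these levels do not check the genotype. A bulk library cannot tell fewer cells of a type from less RNA per cell.

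The start regions of the members differ in their regulatory letters. RefSeq windows on GRCh38.p14, from 250 bases before to 50 bases after the annotated start, were at hand for 31 of the 36 members. The core of the antioxidant response element, the site read by NFE2L1 and its relatives (TGACNNNGC, either strand), occurred in 8 of the 37 windows of these members, 1 each of PSMA4, PSMC4, PSMC5, PSMD1, PSMD3, PSMD5, PSMD9 and PSMD12, and in 13.3% of 35116 windows of all genes. A CCAAT box (CCAAT, either strand) occurred in 16 of 37 member windows and 34.6% of all windows, and an E-box (CACGTG) in 1 of 37 and 7.26%. The 3 motifs do not contain one another. Printed here are the windows of PSMD11 and PSMD12, lid subunits whose transcripts moved together most closely, and of the ATPase PSMC4, with the element core in capitals. That of PSMD12 is at chr17:67366528-67366827 on the minus strand, that of PSMD11 at chr17:32444260-32444559 and that of PSMC4 at chr19:39970915-39971214, both on the plus strand.
PSMD12: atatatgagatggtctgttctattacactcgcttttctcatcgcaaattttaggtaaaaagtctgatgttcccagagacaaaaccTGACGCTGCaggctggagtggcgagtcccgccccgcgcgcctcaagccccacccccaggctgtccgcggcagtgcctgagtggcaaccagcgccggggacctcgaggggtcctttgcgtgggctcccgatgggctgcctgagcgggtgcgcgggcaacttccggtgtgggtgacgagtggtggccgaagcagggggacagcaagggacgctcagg
PSMC4: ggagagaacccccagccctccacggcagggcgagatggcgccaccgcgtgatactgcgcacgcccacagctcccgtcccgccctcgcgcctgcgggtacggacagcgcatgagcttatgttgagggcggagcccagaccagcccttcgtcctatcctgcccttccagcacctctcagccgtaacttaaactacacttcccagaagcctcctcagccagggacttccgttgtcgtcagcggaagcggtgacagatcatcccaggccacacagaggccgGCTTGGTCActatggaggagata
PSMD11: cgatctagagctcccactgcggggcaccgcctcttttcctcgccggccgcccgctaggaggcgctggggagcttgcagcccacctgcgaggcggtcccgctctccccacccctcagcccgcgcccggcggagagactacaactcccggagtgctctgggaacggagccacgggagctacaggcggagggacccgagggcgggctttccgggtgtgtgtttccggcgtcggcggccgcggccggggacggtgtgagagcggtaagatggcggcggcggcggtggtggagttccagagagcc
The PSMD12 match begins at -165 counted from the start site and reads along the gene, the PSMC4 match begins at 27 and reads on the opposite strand, and the PSMD11 window holds none of the 3 motifs. A match is a string of letters and not a measured binding site, and the count table was made on another build, GRCh37.

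The members were steady genes in these cells. Over the 36 libraries the median standard deviation of log2(CPM + 1) was 0.18 for the 34 members and 0.26 for all 17983 genes tested, and within triplets it was 0.09 and 0.12. PSMD4, the ubiquitin receptor of the base, was the most even member, at 106 to 135 CPM with a standard deviation of 0.09. PSMD2, the scaffold on which ubiquitin receptors dock, was the most variable, at 228 to 659 CPM with a standard deviation of 0.41. Its spread came from a pair of triplets: the mean was 528 CPM in untreated replicates 1 to 3 and 583 CPM in insulin-stimulated replicates 1 to 3 of normal medium, and 236 to 345 CPM in the other 10 triplets. The high values thus divide untreated cells from each other and insulin-stimulated cells from each other, and the fold change of PSMD2 between those groups was -0.02 (log2) with a standard error of 0.20.

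**Figure D1:**
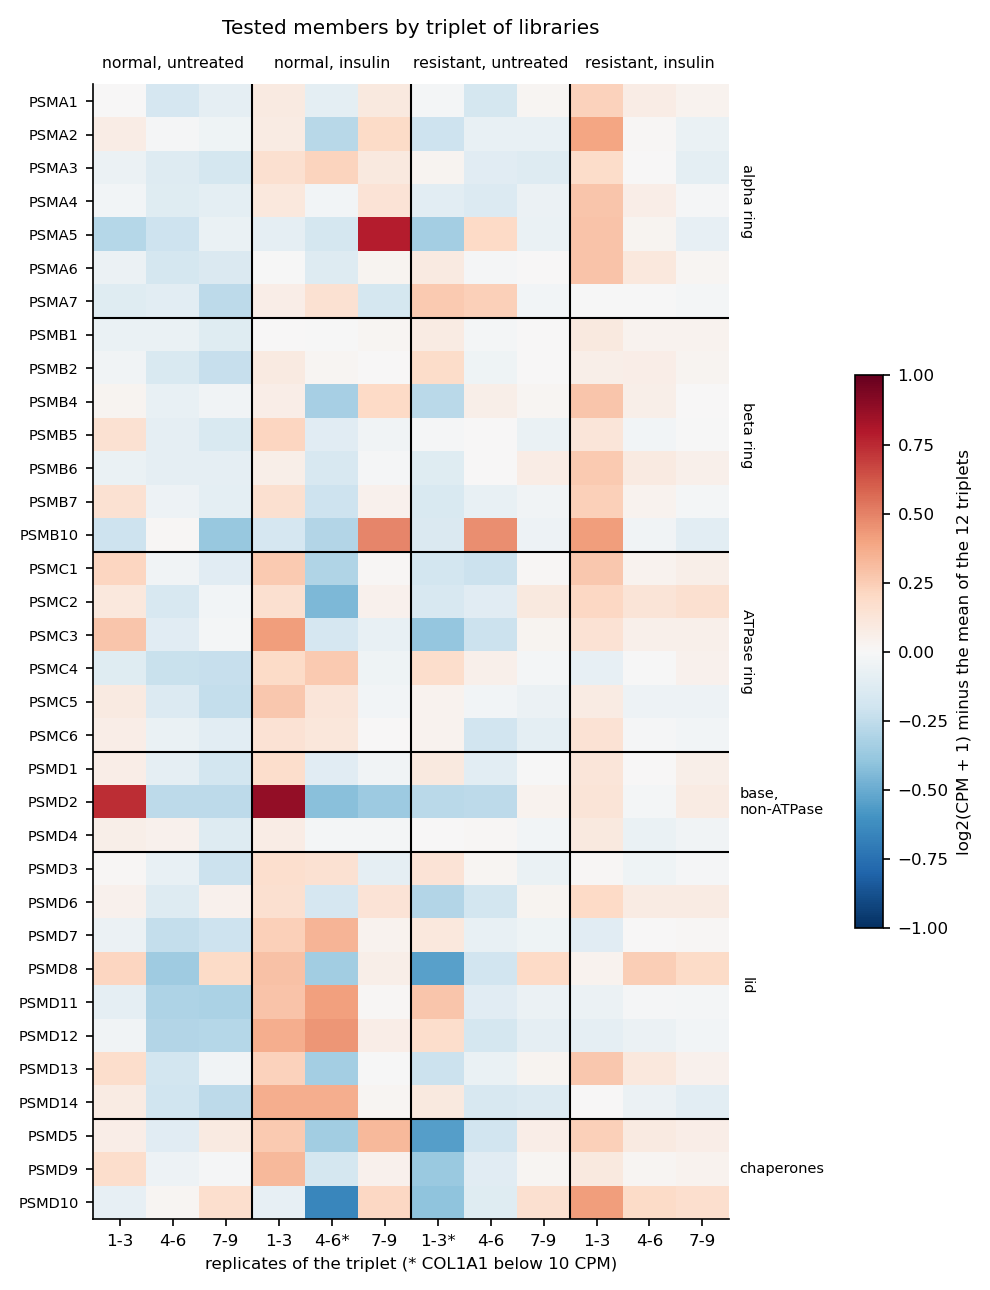
Heat map of the 34 tested proteasome members (rows, grouped by subcomplex) over the 12 triplets (columns, grouped by medium and treatment). Colour is the triplet mean of log2(CPM + 1) minus the gene's mean over all triplets. The lid genes PSMD7, PSMD11, PSMD12 and PSMD14 have their highest group means in insulin-stimulated cells of normal medium. In that group, replicates 7 to 9 lie below the COL1A1-low untreated replicates 1 to 3 of insulin-resistant medium for these genes. Single triplets stand out for PSMD2, PSMA5 and PSMB10.

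The first comparison asks how insulin alters the cells in normal medium. The clearest differences were in the lid and in 1 ATPase: PSMD12 and PSMD11 were about 1.4-fold higher after insulin, and PSMD7, PSMD14 and PSMC4 were higher by a log2 difference of 0.34 to 0.38. In all, 12 of the 34 members tested rose (35.3%) and 0 fell (edgeR, quasi-likelihood F-test, adjusted p under 0.05), where 24.9% of all genes rose and 10.2% fell. The median log2 fold change was 0.07 for the members and 0.03 for all genes. When the COL1A1-low libraries were left out, 5 of 34 members rose (14.7%) and 0 fell, beside 15.4% and 18.1% of all genes, and the medians were 0.02 and -0.01. The members' share was above the share of all genes that rose with all libraries and close to it without the COL1A1-low ones. With TMM factors averaged over all reference libraries, 7 members rose (20.6%), beside 19% of all genes higher and 13.7% lower.

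In the alpha ring 4 of 7 tested genes rose with insulin in normal medium, namely PSMA3, PSMA4, PSMA5 and PSMA7. PSMA3, an alpha subunit known to be phosphorylated by casein kinase II, had a lowest, median and highest level of 54.6, 59.9 and 66.8 CPM in untreated cells and 63.4, 72.4 and 82.8 CPM after insulin. The groups overlapped only between 63.4 and 66.8 CPM, and the log2 fold change was 0.28 ± 0.06 (SE; edgeR adjusted p = 0.000247, and 0.14 with adjusted p = 0.151 without the COL1A1-low libraries). PSMA5 had 89.7, 107.9 and 120.1 CPM in untreated cells and 94.6, 117 and 240.0 CPM after insulin. Its higher mean rested on 1 triplet, since insulin-stimulated replicates 7 to 9 were at 186 to 240.0 CPM with a mean of 209, while the triplet means elsewhere in the study were 95.0 to 147 CPM. The fold change of PSMA5 was 0.43 ± 0.14 (edgeR adjusted p = 0.0176) and 0.48 ± 0.13 (adjusted p = 0.00493) without the COL1A1-low libraries, and within the 24 May batch it was -0.00089. PSMA7, another subunit of the ring, had triplet means of 226 to 253 CPM in untreated cells and 241 to 302 CPM after insulin. Its fold change of 0.20 ± 0.07 (adjusted p = 0.0155) was 0.03 without the COL1A1-low libraries. PSMA1, PSMA2 and PSMA6 did not pass, with values of 0.09, -0.0021 and 0.08. PSMA2 had 73.3, 83.0 and 89.2 CPM in untreated cells and a wider 53.0, 88.3 and 104 CPM after insulin.

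None of the 3 subunits that carry the constitutive proteolytic sites passed. In the beta ring 1 of 7 tested genes rose, the structural subunit PSMB2, from 71.9, 83.4 and 91.2 CPM to 83.8, 91.1 and 103 CPM, with a log2 fold change of 0.17 ± 0.05 (edgeR adjusted p = 0.00758) that was 0.06 without the COL1A1-low libraries. PSMB5, which carries the chymotrypsin-like site, had a lowest, median and highest level of 81.8, 90.2 and 110 CPM in untreated cells and 73.3, 101 and 122 CPM after insulin. PSMB6, the caspase-like subunit, had 59.3, 66.0 and 71.8 CPM and 56.1, 67.2 and 81.6 CPM. PSMB7, the trypsin-like subunit, had 90.6, 101 and 119 CPM and 77.6, 101 and 126 CPM. In each of these genes the untreated range lay inside the insulin range, and the fold changes were 0.05 ± 0.07, 0.04 ± 0.06 and -0.01 ± 0.07 with edgeR adjusted p = 0.66, 0.654 and 0.969. PSMB10, which replaces PSMB7 in the immunoproteasome, had a fold change of 0.30 ± 0.15 (adjusted p = 0.109), from 8.38, 10.4 and 13.5 CPM to 8.98, 10.9 and 18.1 CPM, and is described with its partners below.

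Among the ATPases 2 of 6 rose. PSMC4 had a lowest, median and highest level of 86.5, 93.8 and 99.1 CPM in untreated cells and 97.7, 118 and 135 CPM after insulin, so that the groups overlapped only between 97.7 and 99.1 CPM. The log2 fold change of PSMC4 was 0.34 ± 0.05 (edgeR adjusted p = 6.08e-06), and 0.17 ± 0.06 (adjusted p = 0.0343) without the COL1A1-low libraries. PSMC5 had 0.22 ± 0.06 (adjusted p = 0.00429), and 0.10 without them. PSMC3, which sits in the same ATPase ring, had 110.0, 123 and 154 CPM in untreated cells and 98.5, 119 and 188 CPM after insulin, with a fold change of 0.01 ± 0.09 (adjusted p = 0.954). Genes of 1 hexamer thus had fold changes from -0.05 for PSMC2 to 0.34 for PSMC4.

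Of the base subunits that are not ATPases 0 of 3 passed: PSMD1 had 0.07 ± 0.05, PSMD2 -0.02 ± 0.20 and PSMD4 0.02, the first with edgeR adjusted p = 0.356. PSMD1, the other large scaffold of the base, had a lowest, median and highest level of 139, 148 and 169 CPM in untreated cells and 140.3, 156 and 194 CPM after insulin. PSMD2 had 251, 265 and 543 CPM and 228, 245 and 659 CPM, the upper values being those of the triplets named above. Of the 8 lid genes 5 rose, with a median log2 fold change of 0.27 over the 8. PSMD12, a scaffold subunit of the lid, had a lowest, median and highest level of 61.1, 65.9 and 82.2 CPM in untreated cells and 76.2, 101 and 113 CPM after insulin. PSMD11, the subunit that clamps the lid to the core particle, had 66.3, 69.5 and 83.5 CPM and 81.2, 104 and 120 CPM. In both genes the highest untreated libraries reached above the lowest insulin-stimulated ones, and the median of each group lay outside the range of the other. The fold changes were 0.50 ± 0.07 for PSMD12 (edgeR adjusted p = 5.06e-07) and 0.48 ± 0.07 for PSMD11 (adjusted p = 1.25e-06), and without the COL1A1-low libraries 0.32 ± 0.07 (adjusted p = 0.00141) and 0.28 ± 0.07 (adjusted p = 0.00174). Within the batches of 22 April, 11 April and 24 May the estimate was 0.33, 0.38 and 0.62 for PSMD12 and 0.28, 0.41 and 0.61 for PSMD11. Both genes passed within 24 May, with 2 insulin-stimulated and 3 untreated libraries of normal medium, and neither passed within 22 April or 11 April. Each batch included a COL1A1-low insulin-stimulated library.

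The deubiquitinase pair of the lid moved with them. PSMD14, the enzyme that cuts ubiquitin chains from the substrate, had 76.1, 81.5 and 107 CPM in untreated cells and 89.6, 116 and 128 CPM after insulin. PSMD7, its inactive partner, had 101, 110 and 123 CPM and 120, 150 and 163 CPM. The groups overlapped in both genes, again with each median outside the range of the other group. The fold changes were 0.37 ± 0.07 for PSMD14 (edgeR adjusted p = 0.0001) and 0.38 ± 0.05 for PSMD7 (adjusted p = 1.33e-06), and without the COL1A1-low libraries 0.20 ± 0.09 (adjusted p = 0.0749) and 0.20 ± 0.06 (adjusted p = 0.0187). PSMD3 had 0.17 ± 0.05 (adjusted p = 0.00833) with all libraries and 0.02 without those 6. The other lid genes stayed under the threshold, with 0.05 for PSMD6, -0.03 ± 0.12 for PSMD8 and -0.03 for PSMD13. PSMD8 had 88.5, 136 and 145 CPM in untreated cells and 89.4, 119.8 and 163 CPM after insulin, ranges that largely coincide. None of the 34 members separated the groups without overlap, whereas 6.63% of all genes were higher and 1.81% lower in every insulin-stimulated library.

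**Figure D2:**
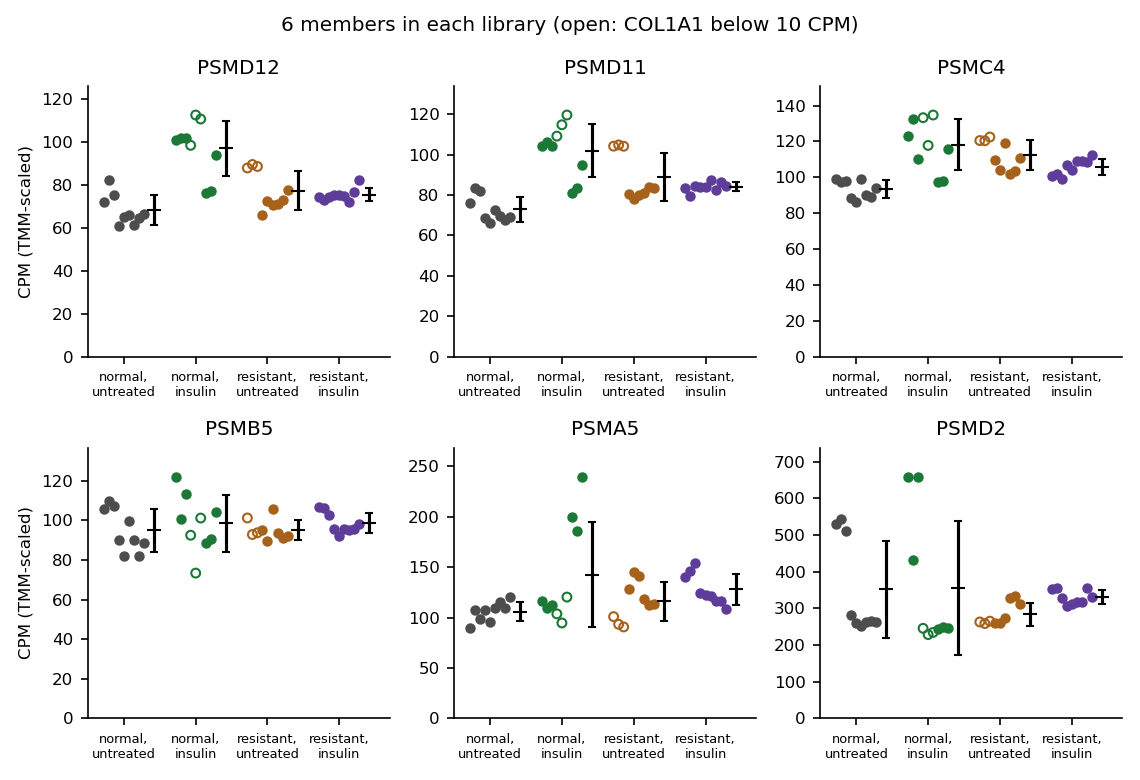
Level in CPM (vertical axis) of selected proteasome members in every library, by group (horizontal axis), with the group mean and bars of 1 SD beside the points; open symbols are the 6 COL1A1-low libraries. PSMD11 and PSMD12 sit at 81.2 to 120 and 76.2 to 113 CPM in insulin-stimulated cells of normal medium, above most untreated libraries, whereas the ranges of PSMB5 overlap throughout and PSMA5 and PSMD2 are high in a few libraries.

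The calls differed in how far they held when single libraries were left out. Such a fit keeps the other libraries of the triplet, so it cannot test the weight of a whole triplet. Libraries within triplets correlated at a median of 0.90, and other pairs within groups at 0.18. PSMC4, PSMD7, PSMD11, PSMD12 and PSMD14 passed with any 1 of the 36 libraries left out, with fold changes of 0.35 to 0.54 for PSMD12 and 0.20 to 0.37 for PSMC4. PSMA3 passed in 19 of 36 such fits, PSMA5 in 9, PSMA7, PSMB2, PSMC5 and PSMD3 in 8 and PSMA4 in 3. The count of 12 fell to 5 or 6 without any 1 of the untreated replicates 4 to 9 or insulin-stimulated replicates 2, 4, 5 and 6 of normal medium, or any 1 of the 18 libraries of insulin-resistant medium. In some of these fits 1 member was also called lower. With the 3 libraries of a triplet summed to 1 sample, 0 of 34 members passed (1.76% of all genes were higher), and PSMD12 had 0.37 with edgeR adjusted p = 0.132.

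Stromal and hepatocyte markers were summed in the same groups. The stromal sum ran from 34340 to 120460 CPM in untreated cells and from 8508 to 84581 CPM after insulin, with a median log2 fold change of -0.65 over the 20 genes and 0 of 20 called. The 22 hepatocyte markers summed to 22548 to 30081 CPM and 16667 to 42014 CPM, with 2 higher and 3 lower. In the 30 other libraries 15 of those 22 fell and the stromal median was -0.20. The part of these levels in the results on the members was not tested.

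**Figure D3:**
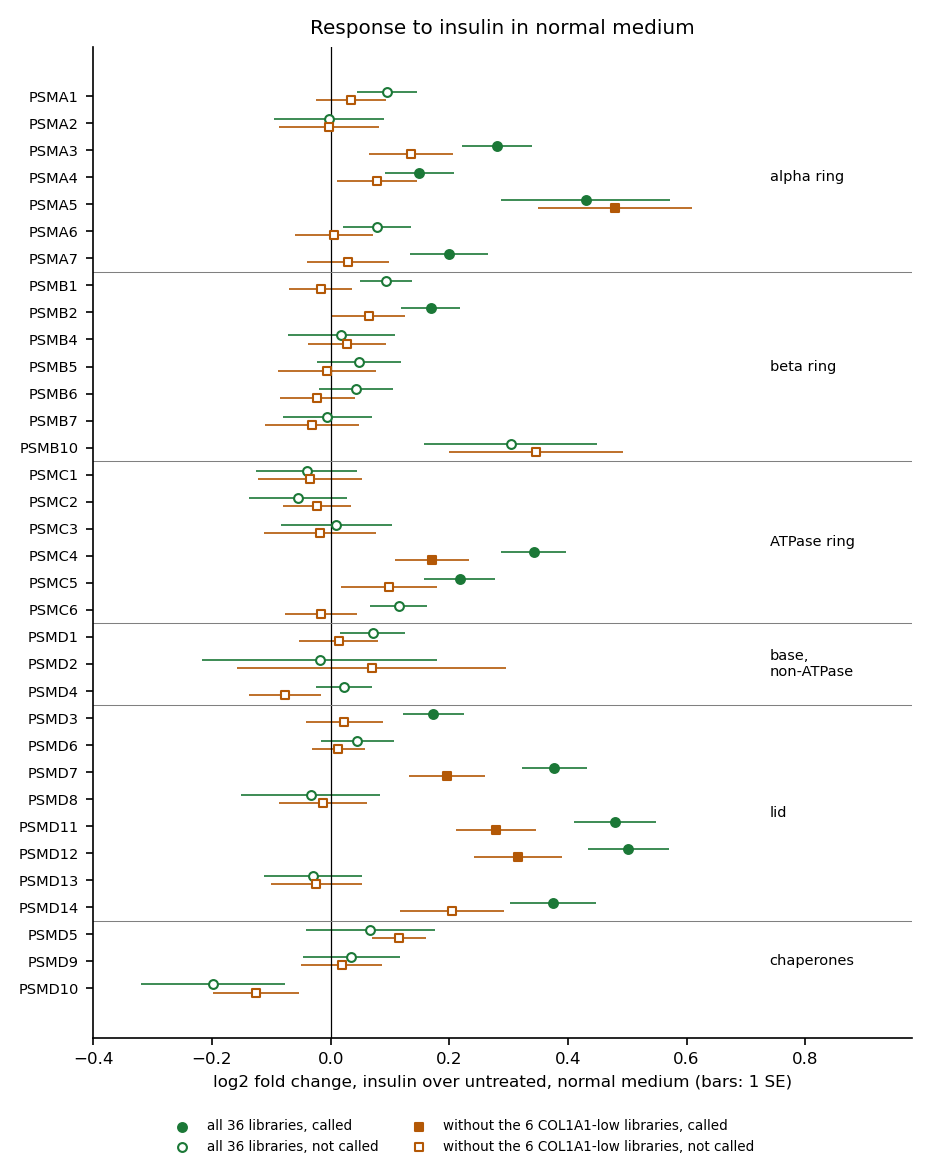
Log2 fold change after insulin in normal medium for the 34 members, with bars of 1 standard error, in all 36 libraries and without the 6 COL1A1-low ones. PSMD12, PSMD11, PSMD7 and PSMC4 lie above 0 in both fits, at 0.50, 0.48, 0.38 and 0.34 and at 0.32, 0.28, 0.20 and 0.17, and PSMB5, PSMB6 and PSMB7 lie near 0; filled symbols passed edgeR's test.

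Averaged by subcomplex, the lid had the largest difference. The mean log2(CPM + 1) of the lid genes was 6.47 ± 0.12 (SD, n = 9) in untreated cells and 6.70 ± 0.12 after insulin in normal medium, a difference of 0.24 that was 0.25 without the COL1A1-low libraries. The difference was 0.16 for the alpha ring, 0.10 for the ATPases, 0.08 for the beta ring, 0.02 for the other base subunits and -0.04 for the assembly chaperones. Over the 30 libraries that were not COL1A1-low these were 0.22, 0.16, 0.16, 0.12 and 0.15, so the gap between the lid and the remaining subcomplexes narrowed. Unlike the fitted fold changes, these means carry no batch term. Over the 30 libraries they also keep the scaling factors estimated on all 36, whereas the fit of 30 libraries estimated its own. In that fit the median log2 fold change of the members was 0.02. Each subcomplex stayed within a 1.46-fold to 1.72-fold range over all 36 libraries, and the mean of all members within 1.41-fold.

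In insulin-resistant medium, the same 3 nM insulin moved no member past the threshold. By edgeR's test 0 of 34 members and 0% of all 17983 genes passed in either direction. An unadjusted p under 0.05 in that test was found for 11 members and 4490 genes. DESeq2 called 0 members, beside 0.25% of all genes higher and 0.195% lower. The median log2 fold change was 0.11 for the members and 0.01 for all genes, and the estimates ran from -0.14 for PSMA7 to 0.33 ± 0.13 for the chaperone PSMD10 (edgeR adjusted p = 0.122). PSMD12 had a lowest, median and highest level of 66.0, 73.2 and 89.6 CPM in untreated cells of this medium and 72.0, 74.8 and 82.6 CPM after insulin. PSMD11 had 78.1, 83.4 and 105 CPM and 79.3, 83.9 and 87.6 CPM. In both genes the insulin range lay inside the untreated range, whose upper end came from the COL1A1-low replicates 1 to 3. Without these, untreated cells had 66.0 to 77.7 CPM of PSMD12 and 78.1 to 83.8 CPM of PSMD11. The insulin ranges then overlapped the untreated ones and reached above them. Over the 30 other libraries the count was again 0, with a median of 0.06, and PSMC6 was higher in every insulin-stimulated library, as were 0.195% of all genes. Of the 9 insulin-stimulated libraries of this medium 0 were from 24 May, so the comparison has no value within that batch. With only these groups fitted, 12 members were called higher and 0 lower, beside 7.01% of all genes higher and 16.3% lower.

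The difference between the insulin responses in the 2 media was tested as an interaction. The log2 fold change after insulin was lower in insulin-resistant medium for 8 members and higher for 1, PSMD10. Of all genes 23.5% were called lower and 6.22% higher. In insulin-resistant medium the estimates of these 8 were below 0, from -0.14 for PSMA7 to -0.03 for PSMD14, and none was called. PSMD10 had -0.20 in normal and 0.33 in insulin-resistant medium, neither called. The members' share of 23.5% lower was that of all genes. PSMD11 had an interaction of -0.61 ± 0.10 (edgeR adjusted p = 2.31e-05), PSMD12 -0.60 ± 0.10 (2.39e-05), PSMD7 -0.45 ± 0.08 (5.6e-05) and PSMC4 -0.44 ± 0.08 (6.04e-05). These 4 and PSMD10, at 0.53 ± 0.18 (adjusted p = 0.0202), passed with any 1 library left out. PSMD14 and PSMA7 had -0.40 and -0.34, and PSMD3 and PSMB2 had -0.21 and -0.20; scaling to hepatocyte genes moved the median of all genes from -0.0058 to 0.23 and these 2 to 0.086 and 0.065, below that median. When the 6 were left out 0 members passed in either direction, beside 12.4% of all genes higher and 9.37% lower, and PSMD12 had -0.29 (edgeR adjusted p = 0.0586) and PSMD11 -0.25 (0.072). The count of 8 fell to 4 or 5 without any 1 of 27 libraries, that is all except untreated replicates 1 to 3 and insulin-stimulated replicates 1, 3, 7, 8 and 9 of normal medium and untreated replicate 9 of insulin-resistant medium. With averaged TMM factors and the 6 COL1A1-low libraries left out, 3 members were called lower, beside 10.5% of all genes, and 0 higher. DESeq2, its size factors and averaged TMM factors, each with all libraries, gave 6 lower and 5 higher. In these fits 18.1% to 19% of all genes were lower and 10.1% to 12.5% higher. Single leave-outs gave up to 7 members higher. With summed triplets and within the 22 April and 11 April batches 0 members passed.

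**Figure D4:**
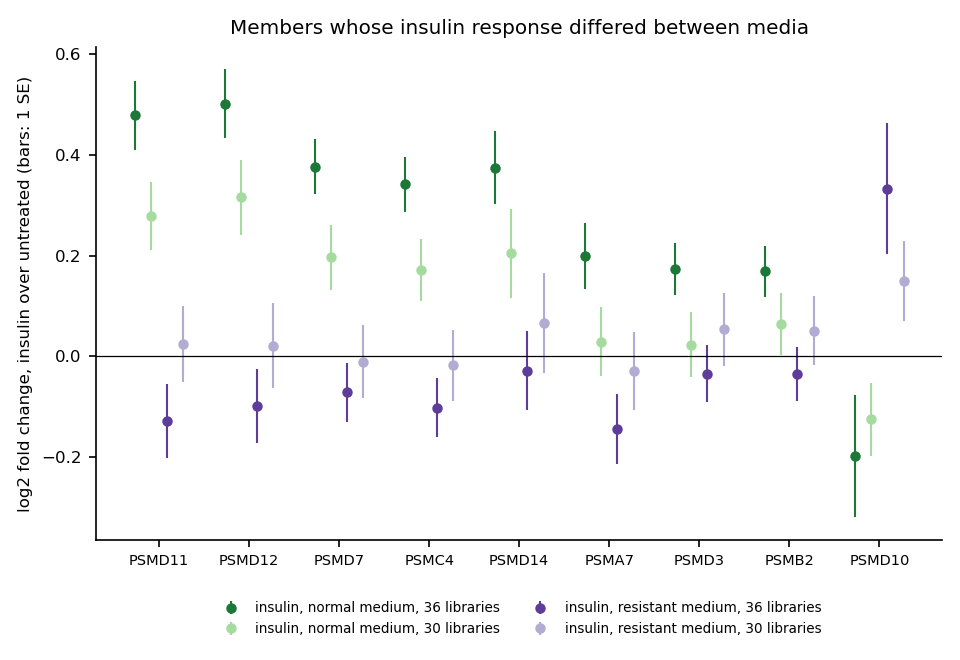
Log2 fold change after insulin (vertical axis, bars of 1 standard error) in normal medium and in insulin-resistant medium for the 9 members whose responses differed, with all 36 libraries and with the 30 that were not COL1A1-low. PSMD11 and PSMD12 are at 0.48 and 0.50 in normal medium and below 0 in insulin-resistant medium with all libraries, and the points of the 2 media lie closer together with 30.

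The insulin-resistant medium was next compared with normal medium in untreated cells, the comparison that asks what the fatty acids, glucose and low insulin do on their own. Higher levels were found for 5 members and lower levels for 0 of 34, beside 13.3% of all genes higher and 8.62% lower, so the share of members called (14.7%) was close to the background. They were spread over the subcomplexes: PSMA7 with 0.33 ± 0.06 (edgeR adjusted p = 0.000293), PSMD11 with 0.28 ± 0.07 (0.00241), PSMC4 with 0.27 ± 0.05 (0.000379), PSMB2 with 0.19 ± 0.05 (0.00556) and PSMD7 with 0.16 ± 0.05 (0.0275). PSMC4 stood at 102, 111 and 122 CPM (lowest, median, highest) in insulin-resistant medium against 86.5, 93.8 and 99.1 CPM in normal medium. It was the single member whose groups did not overlap, as was so in this direction for 3.84% of all genes, and for PSMC4 and 4.39% of all genes over the 30 other libraries. PSMD11 differed between triplets of the insulin-resistant group, with a mean of 104 CPM in the COL1A1-low replicates 1 to 3 and of 79.6 and 82.7 CPM in the other triplets. With the 6 COL1A1-low libraries left out, PSMA7 alone passed, with 0.20 ± 0.07 (edgeR adjusted p = 0.0304), beside 10.7% of all genes higher. With summed triplets, whose libraries correlated at a median of 0.90 after each gene was centred, and within the 22 April and 11 April batches, 0 of 34 members passed. The stromal sum was 34340 to 120460 CPM in normal and 7269 to 138120 CPM in insulin-resistant medium, and the hepatocyte sum 22548 to 30081 and 16695 to 35916 CPM; their part in these differences was not tested. The count of 5 fell to 3 without untreated replicate 5 of normal medium or without untreated replicate 1, 2, 3 or 6 of insulin-resistant medium. Without replicate 5 of normal medium 1 member was also lower, and without replicate 6 of insulin-resistant medium 2 were.

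In insulin-stimulated cells the same change of medium gave lower levels for 6 members, PSMA3, PSMC4, PSMD7, PSMD11, PSMD12 and PSMD14, and higher levels for PSMB6 and PSMD10, where 26.3% of all genes were lower and 12% higher; scaling to hepatocyte genes moved the median of all genes from -0.01 to 0.45 and the 6 lower members to 0.085 to 0.34, below that median. The 17.6% of members called lower is below the background. DESeq2 and averaged TMM factors gave 5 higher and 4 lower, beside 16.7% to 19.1% and 21.9% to 22% of all genes. Hepatocyte scaling gave 14 higher and 0 lower (30.8% and 3.8% of all genes), and summed triplets and each April batch gave 0. PSMD12 had the largest difference, -0.42 ± 0.07 (edgeR adjusted p = 2.14e-05), from 76.2, 101 and 113 CPM in normal medium to 72.0, 74.8 and 82.6 CPM in insulin-resistant medium. PSMD14 had -0.35 ± 0.08 (0.000523), PSMD11 -0.32 ± 0.07 (0.000633) and PSMD7 -0.28 ± 0.06 (0.000187). PSMB6 went the other way, from 56.1, 67.2 and 81.6 CPM to 67.7, 76.0 and 88.4 CPM, with 0.18 ± 0.07 (edgeR adjusted p = 0.0295). In the fit of 30 libraries PSMD12 alone was lower, with -0.25 ± 0.08 (adjusted p = 0.0162), and PSMA6, PSMB6 and PSMD10 were higher, beside 18.2% of all genes lower and 17.8% higher. The count of lower members fell from 6 to 1 without insulin-stimulated replicate 6 of normal medium. The stromal sum was 8508 to 84581 CPM in insulin-stimulated cells of normal medium and 45655 to 132990 CPM in those of insulin-resistant medium, and the hepatocyte sum was 16667 to 42014 and 16508 to 19863 CPM. Their part in these differences was not tested. The insulin-stimulated group of normal medium enters this comparison, the first comparison and the interaction, and the untreated group of normal medium enters 3 of the comparisons, so the calls on PSMD11 and PSMD12 are not separate observations.

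Of the assembly chaperones, 0 of 3 passed for insulin in normal medium. PSMD10, also known as gankyrin, had a lowest, median and highest level of 41.9, 47.8 and 55.1 CPM in untreated and 28.2, 46.0 and 58.9 CPM in insulin-stimulated cells of normal medium. In insulin-resistant medium it had 32.7, 41.9 and 55.8 CPM and, after insulin, 50.9, 52.8 and 64.1 CPM. Its lowest triplets were the COL1A1-low ones, with means of 29.1 CPM in the insulin-stimulated and 34.6 CPM in the untreated group. After each group's mean was subtracted, PSMD10 ran opposite to PSMD11 across the 36 libraries, with a Pearson r of -0.70. Without the COL1A1-low libraries this r was -0.38. The fold change of PSMD10 after insulin was -0.20 ± 0.12 (edgeR adjusted p = 0.224) in normal medium, and the change of medium in insulin-stimulated cells gave 0.39 ± 0.13 (adjusted p = 0.0157), or 0.25 without the COL1A1-low libraries. PSMD9 had 41.7, 46.7 and 54.9 CPM in untreated and 35.3, 47.9 and 60.9 CPM in insulin-stimulated cells of normal medium, with a fold change of 0.04 ± 0.08 (edgeR adjusted p = 0.794), and PSMD5 had 0.07.

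Most pairs of members had a positive correlation across the libraries, though not all. The median Pearson r over the 561 pairs of members was 0.43 across the 36 libraries, with 448 pairs above 0, and 0.53 with 495 pairs above 0 across the 30 libraries that were not COL1A1-low. All were computed after each group's mean log2 level was subtracted, so differences between the groups do not enter them. These correlations share library, depth and scaling and are given as a description. Pairs of other genes were not examined, so the values do not show a trait particular to the members. The closest pairs were PSMA4 with PSMA6 and PSMD11 with PSMD12, both at 0.93, and PSMC3 with PSMD9 at 0.92. The genes that most resembled PSMD11 among the members were PSMD12 (0.93), PSMD7 (0.84), PSMD14 (0.84) and PSMC4 (0.78), and without the COL1A1-low libraries these values were 0.90, 0.80, 0.83 and 0.72. PSMA5 was the most opposed to PSMD11, at -0.72. Among the lid genes alone the median r was 0.12 with all libraries and 0.58 without the COL1A1-low ones.

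The immunoproteasome genes were high in single triplets of different groups. These subunits take the catalytic places of the core in cells that have met interferon. PSMB10 stood at 17.5 CPM in insulin-stimulated replicates 7 to 9 of normal medium, 17.1 CPM in untreated replicates 4 to 6 and 16.6 CPM in insulin-stimulated replicates 1 to 3 of insulin-resistant medium, and at 9.11 to 12.3 CPM in the other 9 triplets. PSMB8, which is no member by the rule, stood at 29, 31.5 and 37.2 CPM and PSMB9 at 6.77, 8.75 and 8.81 CPM in those 3 triplets. The 3 genes had their highest means in these triplets, 1 in each of 3 groups. The next highest were untreated replicates 4 to 6 of normal medium, with 27.0 CPM of PSMB8 and 5.55 CPM of PSMB9, and the COL1A1-low triplet of insulin-resistant medium, with 26.6 and 6.11 CPM.

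Genes around the proteasome were also called. Of 43 genes outside the rule that belong to its regulators, assembly factors and substrate delivery, 20 rose and 1, PAAF1, fell after insulin in normal medium by edgeR's test, beside the 24.9% and 10.2% of all genes given above. Among 11 activators, inhibitors and bound enzymes 7 rose, including the deubiquitinase UCHL5 (0.82) and the nuclear activators PSME3 (0.69) and PSME4 (0.60). Of the core assembly chaperones PSMG1 (0.54) and PSMG3 (0.40) rose, 2 of 5, and of the 4 subunits named outside the rule the ubiquitin receptor ADRM1 rose (0.45). Of the 9 genes around NFE2L1 5 rose, the small MAF partners MAFG (0.77) and MAFK (0.49), the relatives NFE2L3 (0.63) and NFE2L2 (0.28), and NGLY1 (0.40), which processes NFE2L1. NFE2L1 itself had 0.12 (adjusted p = 0.348). Of 14 genes of ubiquitin supply and delivery 5 rose, with SQSTM1, the autophagy receptor for ubiquitin, at 0.92 and VCP, the segregase that extracts substrates, at 0.30.

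In the fit without COL1A1-low libraries 15 of these 43 genes rose and 2 fell, PAAF1 and DDI2, beside 15.4% and 18.1% of all genes, and SQSTM1 had 0.70, UCHL5 0.57, PSME3 0.46 and PSMG1 0.32. In insulin-resistant medium 0 of 43 passed for insulin. For the change of medium in untreated cells 7 rose and 8 fell, beside 13.3% and 8.62% of all genes, with NFE2L3 (1.54) and SQSTM1 (0.84) the highest. In insulin-stimulated cells 5 rose and 20 fell, beside 12% and 26.3%, with MAFG (-0.98) and UCHL5 (-0.79) the lowest. The interaction called 2 genes higher and 18 lower, beside 6.22% and 23.5%, among them SQSTM1 (-1.12), NFE2L3 (-1.06) and MAFG (-1.03). It called 3 and 11 without the COL1A1-low libraries, beside 12.4% and 9.37%.

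**Figure D5:**
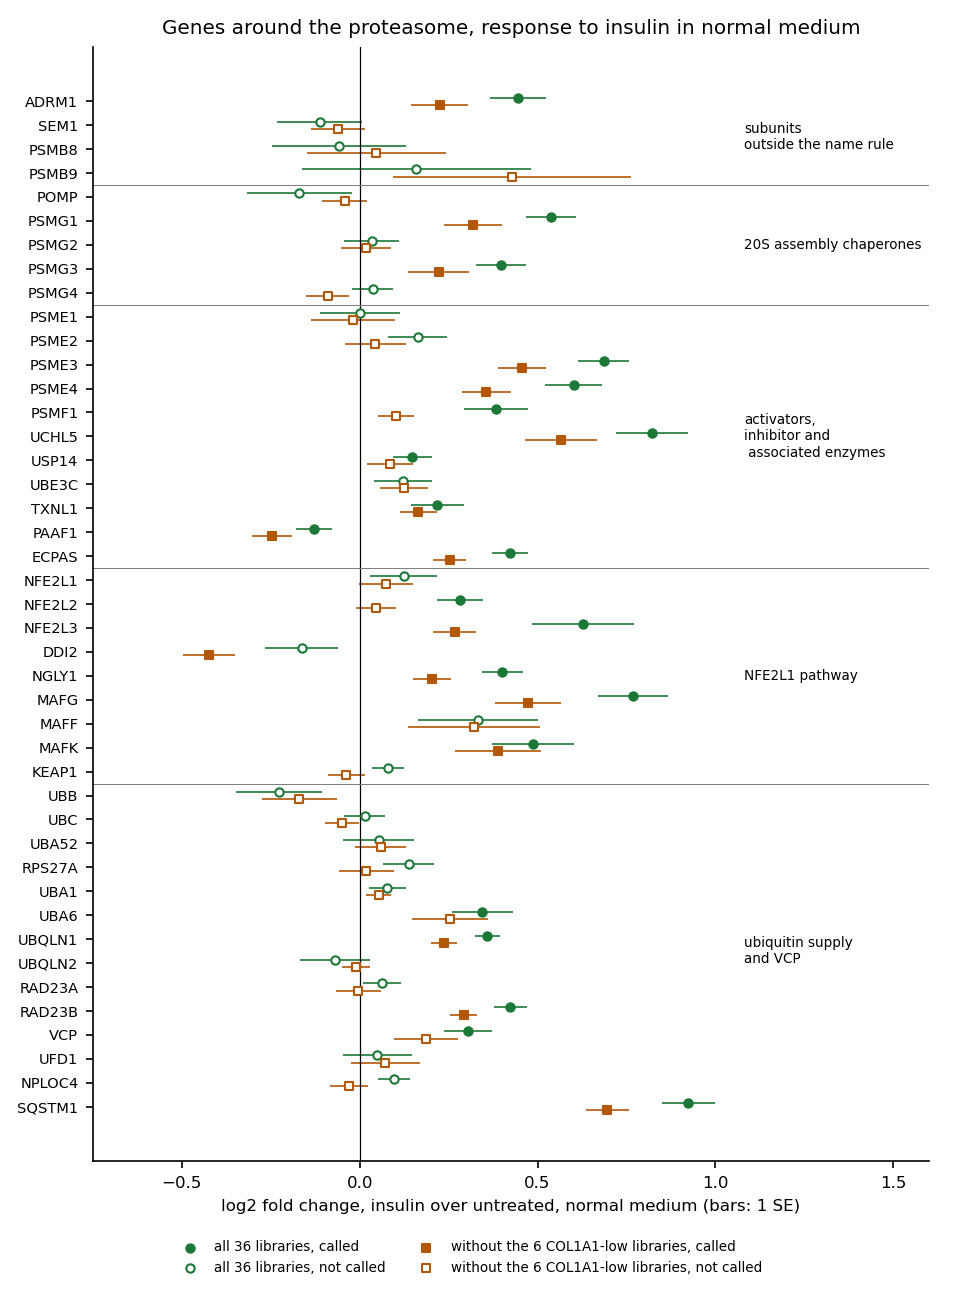
Log2 fold change after insulin in normal medium (horizontal axis, bars of 1 standard error) of the 43 regulators, assembly factors and delivery genes, by list, with all 36 libraries and without the 6 COL1A1-low ones; filled symbols passed edgeR's test. Called genes reach 0.92 (SQSTM1), 0.82 (UCHL5) and 0.77 (MAFG) with all libraries, and the 3 lie lower without the COL1A1-low ones.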

How the data were processed

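Poly-A RNA was sequenced in 36 libraries. The values in the deposited table are expected counts (estimated reads for each Ensembl gene), which the authors did not scale to a shared total. The submitters' processing notes name STAR, Salmon and GRCh37, without versions, annotation or filters. Fractions were found in 15.5% of values, and these were rounded to whole counts. Symbols were matched through Ensembl identifiers for 51994 of 57771 genes (90.0%).

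A single model held the 36 libraries, with group means and batch as terms (edgeR 4.0.16 under R 4.3.3; filterByExpr, TMM, quasi-likelihood F-test, robust). Benjamini-Hochberg adjustment covered 17983 genes, and the threshold was 0.05. Errors of fold changes are standard errors. Subcomplex levels are means of log2(CPM + 1) over tested members. CPM are not divided by gene length, so levels are not compared between genes. Library totals of 26.6M to 117M counts make counting error small for these genes beside the spread between libraries. COL1A1-low libraries had less than 10 CPM of COL1A1. Reads of members and of their pseudogenes may be split by the authors' counting; the 13 pseudogenes of PSMC1 held 1.45% of its level, the highest share among the members.

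The members and lists were chosen with earlier results of these data known. Full values are given for PSMB5, PSMB6, PSMB7 and PSMB10 and, in each subcomplex, for the members with the smallest and the largest adjusted p for insulin in normal medium. PSMA5, PSMA7, PSMD7, PSMD11 and PSMD14 were added after their values were seen. The pathway lists hold 43 genes. No pair of libraries of a group agreed within sampling noise (lowest chi-square per gene 4.19 over 144 pairs). Alternatives were DESeq2 1.42.0 and its size factors, averaged TMM factors, scaling to 22 hepatocyte genes, no low-count filter, no batch term, a replicate block, only the groups compared, summed triplets, single batches, and leaving out each library. The fit within the 24 May batch and the combinations of leaving out COL1A1-low libraries with another scaling or with summed triplets were chosen after seeing the data. The count test was tested on simulated data for insulin in normal medium. It called 28% of 50 genes changed 1.3-fold and 62% of 50 changed 1.5-fold. The simulated libraries were drawn independently, without triplets. Promoter windows come from RefSeq (GRCh38.p14).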

Additional observations from a re-analysis of the deposited data

Results flagged for a closer look

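For 9 members the response to insulin differed between the media by edgeR's interaction test, as log2 differences of resistant minus normal medium. Of all genes 23.5% were called lower and 6.22% higher, and the share of members called lower was also 23.5%. The differences below 0 were those of PSMD11 (-0.61), PSMD12 (-0.60), PSMD7 (-0.45), PSMC4 (-0.44), PSMD14 (-0.40), PSMA7 (-0.34), PSMD3 (-0.21) and PSMB2 (-0.20). The difference above 0 was that of PSMD10 (0.53). In the same fit without the 6 COL1A1-low libraries none of the 9 passed, beside 12.4% of all genes higher and 9.37% lower.

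A single library stood far from the other 8 of its group in 2 of 84 groups of values examined, where chance gives about 1 in 20. The beta ring had a mean log2(CPM + 1) of 6.47 in untreated replicate 6 of insulin-resistant medium, and the next library had 6.29. PSMD12 had 6.39 in insulin-stimulated replicate 9 of insulin-resistant medium, and the next library had 6.28.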

How the results depend on the processing

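The counts of members called depended on the scaling, the libraries and the unit of replication, and the cause was not tested. For insulin in normal medium 12 members were higher, beside 24.9% of all genes. The count was 5 without the COL1A1-low libraries (15.4% of all genes higher). It was 7 with DESeq2, with its size factors or with averaged TMM factors (19% to 20.2%). With hepatocyte scaling it was 5 (19.4%), with no low-count filter 5 (7.84%) and with only the groups compared 6 (16.6%). It was 0 within the 22 April and 11 April batches (1.84% and 3.45%), 5 within the 24 May batch and 0 with summed triplets (1.76%). Within the 24 May batch 1 member was also lower, beside 17.4% of all genes higher and 14.1% lower. With the COL1A1-low libraries left out the count was 34 with hepatocyte scaling (59.9% of all genes higher), 7 with averaged TMM factors (17.3%) and 0 with summed triplets (1.58%). For insulin in insulin-resistant medium (0) it was 4 without a batch term, all higher (2.82% of all genes higher, 8.65% lower), 12 with only the groups compared, all higher (7.01% and 16.3%), and 6 with the replicate block, 5 higher and 1 lower (5.07% and 9.8%). For the medium in untreated cells (5 higher, beside 13.3% of all genes) it was 1 without the COL1A1-low libraries (10.7%). With the replicate block it was 9 (13.5%) and with summed triplets 0 (1.89%). It was 0 within the 22 April and 11 April batches (2.58% and 1.84%) and 2 within the 24 May batch (4.93%). Without the COL1A1-low libraries it was 33 with hepatocyte scaling (69.8% of all genes higher), 2 with averaged TMM factors and 0 with summed triplets. For the medium in insulin-stimulated cells (6 lower, 2 higher) the lower count was 1 without the COL1A1-low libraries, 0 with hepatocyte scaling (14 higher, 30.8% of all genes), 3 without a low-count filter, 1 with only the groups compared, 0 with summed triplets and 0 within the 22 April and 11 April batches. Without the COL1A1-low libraries the lower count was 0 with hepatocyte scaling (8.27%), 1 with averaged TMM factors (18.5%) and 0 with summed triplets (2.13%). With DESeq2, its size factors or averaged TMM factors 4 were lower and 5 higher, beside 21.4% to 22% and 16.7% to 19.1% of all genes. For the interaction (8 lower, 1 higher) the lower count was 0 without the COL1A1-low libraries, 0 with hepatocyte scaling, 4 without a low-count filter, 0 with summed triplets and 0 within the 22 April and 11 April batches. Without the COL1A1-low libraries it was 19 with hepatocyte scaling (40.4% of all genes lower), 3 with averaged TMM factors (10.5%) and 0 with summed triplets (0.144%). With DESeq2, its size factors or averaged TMM factors, and all libraries, 6 were lower and 5 higher. The shares of all genes were 18.1% to 19% and 10.1% to 12.5%. Leaving out 1 library at a time gave 5 to 13, 0 to 1, 3 to 7, 1 to 6 and 4 to 10 in these 5 comparisons, with 1 to 7 higher in the interaction, and the count of 1 for insulin in insulin-resistant medium came without untreated replicate 7 of that medium. In the other direction, 0 to 1 member was lower for insulin in normal medium and 0 to 2 for the medium in untreated cells. For the medium in insulin-stimulated cells 2 to 8 were higher. The shares of all genes in these leave-out fits are not given here.

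The replicate block gave 13 higher for insulin in normal medium (24.8% of all genes). It gave 7 lower for the medium in insulin-stimulated cells (27.3%) and 10 lower for the interaction (25%). Replicate numbers do not pair the samples: correlations of same-numbered libraries ran from -0.82 to 0.74 with a median of 0.14, and 2 of 36 libraries matched their own number best.

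Hepatocyte scaling moved the median log2 fold change of all genes to 0.16 for insulin in normal medium, 0.37 in insulin-resistant medium, 0.21 and 0.45 for the medium in untreated and insulin-stimulated cells and 0.23 for the interaction. Without the COL1A1-low libraries it was 0.43, 0.49 and -0.38 for insulin in normal medium, the medium in untreated cells and the interaction. The sign of some fold changes turned, under hepatocyte scaling together with this shift of all genes. Under hepatocyte scaling the difference of media in insulin-stimulated cells became 0.32 for PSMC4, 0.34 for PSMA3, 0.21 for PSMD7, 0.19 for PSMD11, 0.15 for PSMD14 and 0.085 for PSMD12, and without the COL1A1-low libraries 0.087 for PSMC4 and 0.10 for PSMA3. That of PSMA3 was also 0.059 within 22 April and 0.0026 in summed triplets without the COL1A1-low libraries. For insulin in normal medium PSMA7 was -0.0089 within 22 April and -0.00049 in summed triplets without the COL1A1-low libraries, and PSMA5 was -0.00089 within 24 May. In the interaction PSMD3 was 0.030 without the COL1A1-low libraries, 0.086 with hepatocyte scaling and 0.0090 with averaged TMM factors and no COL1A1-low libraries, PSMB2 was 0.065 with hepatocyte scaling, and PSMD10 was -0.12 with hepatocyte scaling and no COL1A1-low libraries. The insulin difference of the assembly chaperones turned from -0.04 to 0.15 without the COL1A1-low libraries and to 0.056 with hepatocyte scaling, and that of the alpha ring went from 0.16 to 0.22 and 0.26. The subcomplex values without the COL1A1-low libraries keep the scaling factors estimated on all 36 libraries.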
